A study of Rattus norvegicus with 12 samples.

Results

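The genes described here encode 10 potassium channel proteins that carry or shape the repolarising currents of the heart muscle cell: Kcnd2, Kcnd3, Kcnip2 and Kcna4 of the transient outward current, Kcna5 and Kcnq1 of delayed rectifier currents, and Kcnj2, Kcnj3, Kcnj5 and Kcnj11 of inward rectifier currents. Their members are every probe set (a group of short oligonucleotides on the array that together report 1 transcript) annotated to exactly 1 of these symbols, without regard to its values. There were 20 such probe sets for all 10 genes (of 14217 genes read by a probe set of 1 symbol), among 31042 probe sets on the array after its control probe sets were removed. Heart tissue of rats was measured with 1 array for each heart, 6 hearts labelled failing and 6 labelled control. The series concerns the spontaneously hypertensive rat, an inbred strain with high blood pressure, and its passage from a compensated, thickened heart to systolic failure. The strain, age and sex of the animals, the chamber sampled and any treatment of the control rats are not stated in the labels. All 12 arrays of the deposited values are used here, and none is labelled as from rats that received captopril. The labels call the hearts of a group biological replicates.

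An action potential of the heart muscle cell ends when potassium leaves the cell. The transient outward current gives the early, fast part of this, through pores built from Kv4.2 (Kcnd2) and Kv4.3 (Kcnd3) with the accessory protein KChIP2 (Kcnip2), or from Kv1.4 (Kcna4), which recovers more slowly. In rodents this current is large and does much of the work of repolarisation. Delayed rectifiers (Kv1.5 from Kcna5, KvLQT1 from Kcnq1) open later, and inward rectifiers hold the resting potential (Kir2.1 from Kcnj2), answer acetylcholine through G proteins (GIRK1 and GIRK4 from Kcnj3 and Kcnj5) or open when ATP runs low (Kir6.2 from Kcnj11). Loss of transient outward current is a widely described feature of hypertrophied and failing hearts.

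Kcnd2 fell in failing hearts, and it was the only member that passed the adjusted test among brighter probe sets (limma adjusted p = 0.0165). Over all probe sets Kcnd2 did not pass (limma adjusted p = 0.10), nor did any other member. Its brighter probe set was 3.16-fold lower (log2 difference -1.66 ± 0.26 SE, n = 6 in each group), with all 6 failing hearts below every control heart. Kcnd3, Kcnip2, Kcnj3 and Kcnj11 each had a brightest probe set with a difference between -0.52 and -0.59, at limma unadjusted p from 0.0129 to 0.0206, and none of these passed adjustment. In Kcna4, Kcna5, Kcnq1 and Kcnj5 the difference did not exceed the heart-to-heart spread, and Kcnj2 was too dim to measure well.

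All values are the deposited intensities on a log2 scale, so that 1 unit is a doubling, and differences are failing minus control. A probe set's brightness depends on its own oligonucleotides as well as on the RNA, so levels are compared between hearts and not between genes. Every probe set was tested with limma, and p-values were adjusted by Benjamini-Hochberg over all 31042 probe sets. In that fit 0% of probe sets were called at an adjusted p of 0.05, in either direction (lowest adjusted p = 0.10), although 7.23% were lower and 7.25% higher in failing hearts at an unadjusted p under 0.05. A second fit held the 15521 brighter probe sets, those with a mean over the 12 hearts at or above the median of 6.94 (intensity 122.6), since the median spread within groups (residual SD) was 1.08 among dimmer and 0.28 among brighter probe sets. The second fit was planned when earlier results of these data with no call over all genes were known, and its split by level does not use the groups. It called 1.48% of the brighter probe sets lower and 2.76% higher. "Fell" and "rose" are used here only for probe sets called in that second fit. Of the 20 member probe sets 14 lay among the brighter ones, for 7 of the 10 genes. The remaining 6 included the single probe sets of Kcna4, Kcna5 and Kcnj2.

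The 12 arrays had been scaled alike, with median intensities from 120.6 to 143.9. Heart muscle markers were strong: all 11 measured cardiomyocyte markers (troponins, myosin light chains, titin and others) lay among the brighter probe sets. At an unadjusted p under 0.05 0 of them were higher and 0 lower, but their median difference was -0.16, against -0.0002 over the brighter probe sets. Their summed intensities ran from 313741 to 457989 in failing and 295072 to 465275 in control hearts. Control replicate 4 stood apart, with the lowest of these sums and a first principal component of 13.5, on the side of most failing hearts (32.8% of the variance), whereas failing replicate 5 lay at -7.2, on the control side. Leaving out control replicate 4 raised the shares called among the brighter probe sets to 6.75% lower and 6.67% higher, so results are given with and without it where it matters. Of 10 fibroblast markers 3 were higher and 0 lower at an unadjusted p under 0.05, of 8 macrophage markers 5 and 0, of 8 smooth muscle and pericyte markers 5 and 1, and of 7 endothelial markers 3 and 2. The summed level of the fibroblast markers ran from 51047 to 109509 in failing and from 43730 to 70185 in control hearts, that of the macrophage markers from 20071 to 40081 and from 20935 to 25390, that of the smooth muscle markers from 6057 to 11512 and from 6216 to 8095, and that of the endothelial markers from 14289 to 18175 and from 12330 to 15229. Neural and Schwann markers all lay below the median level. Their part in the potassium channel results was not tested, and in whole tissue fewer muscle cells and less RNA per cell cannot be told apart.

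Of the 20 member probe sets 10 were lower and 0 higher in failing hearts at an unadjusted p under 0.05 in the fit over all probe sets, against 7.23% and 7.25% of all probe sets. Among brighter probe sets these were 9 of 14 members, against 9.43% of brighter probe sets (10.9% were higher). The 10 came from 5 genes, so that several of them read the same transcript. The median difference was -0.34 over the 20 members and -0.02 over all probe sets. After adjustment 1 of the 14 brighter members was called lower and 0 higher, against 1.48% and 2.76%. The groups did not overlap in 1 of 20 members, against 0.535% of all probe sets for lower and 0.989% for higher ones. Without control replicate 4 they did not overlap in 3 of 20, all lower in failing hearts, against 2.69% of all probe sets for lower and 2.13% for higher ones, and 6 of the 14 brighter members were called lower, against 6.75%. With each heart left out in turn, 6 to 10 members were lower at an unadjusted p under 0.05. The count was 6 without control replicate 3 and 6 without control replicate 6.

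**Figure D1:**
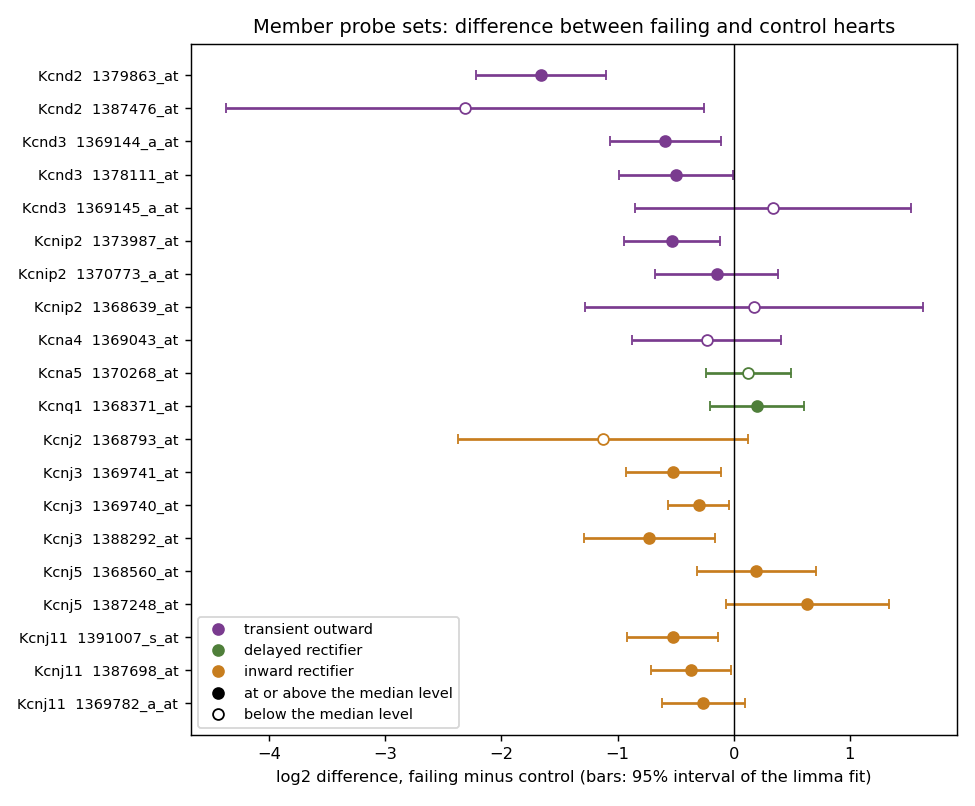
The log2 difference between failing and control hearts is plotted for each of the 20 probe sets, with the 95% interval of the limma fit over all probe sets as bars. Filled points are probe sets at or above the median level and open points those below it, coloured by current. Kcnd2 stands farthest below 0 among the filled points, at -1.66, and the filled Kcnd3, Kcnip2, Kcnj3 and Kcnj11 points lie between -0.15 and -0.73, while the open Kcnd3 and Kcnip2 points lie above 0.

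The transient outward genes are shown first with the 250 bases before the annotated start of each gene, since 3 of the 4 had lower values in failing hearts and Kcna4 did not differ beyond its spread. The sequences are those of RefSeq on rat assembly GRCr8, read 5′ to 3′ on the strand of the gene, at chr4:50742235-50742484 (plus strand) for Kcnd2, chr2:195626066-195626315 (plus) for Kcnd3, chr1:254613899-254614148 (minus) for Kcnip2 and chr3:114215086-114215335 (plus) for Kcna4. Capitals mark CACCC on either strand, the core of the sites that Krüppel-like factors bind. A second motif, ACANNTGT, that Iroquois factors bind, was searched on both strands and found in 0 of them.
Kcnd2: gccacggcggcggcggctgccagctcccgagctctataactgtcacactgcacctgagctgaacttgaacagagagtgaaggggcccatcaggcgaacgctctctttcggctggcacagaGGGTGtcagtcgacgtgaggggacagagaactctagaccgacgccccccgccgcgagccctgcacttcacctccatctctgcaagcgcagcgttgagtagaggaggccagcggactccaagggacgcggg
Kcnd3: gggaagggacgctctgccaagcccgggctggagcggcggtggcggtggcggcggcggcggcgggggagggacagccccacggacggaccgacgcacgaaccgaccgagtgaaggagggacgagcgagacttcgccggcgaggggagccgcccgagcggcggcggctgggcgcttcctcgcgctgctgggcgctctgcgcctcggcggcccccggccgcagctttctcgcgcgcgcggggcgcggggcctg
Kcnip2: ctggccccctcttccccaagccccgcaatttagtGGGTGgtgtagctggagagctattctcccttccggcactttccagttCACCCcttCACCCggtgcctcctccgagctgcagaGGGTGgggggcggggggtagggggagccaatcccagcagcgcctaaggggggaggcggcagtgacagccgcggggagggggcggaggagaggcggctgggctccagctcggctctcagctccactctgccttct
Kcna4: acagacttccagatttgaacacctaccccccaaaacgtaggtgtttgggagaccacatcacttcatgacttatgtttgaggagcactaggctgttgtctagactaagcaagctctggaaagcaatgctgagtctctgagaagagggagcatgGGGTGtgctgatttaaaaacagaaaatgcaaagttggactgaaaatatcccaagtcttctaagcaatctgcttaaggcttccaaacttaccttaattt
CACCC occurred 4 times before Kcnip2, once each before Kcnd2 and Kcna4 and 0 times before Kcnd3, and at least once in 49.2% of 33469 such windows over all genes, while ACANNTGT occurred in 6.71%. The windows of Kcnd2, Kcnd3 and Kcnip2 held 64.0%, 79.6% and 68.0% G or C and that of Kcna4 42.8%, against a median of 51.2% over all genes. A match to these letters describes the window and is no evidence of binding. Of the other members Kcna5, Kcnj2 and Kcnj5 also had such a window, 7 of 10 in all. Theirs held 54.8%, 66.0% and 57.2% G or C, with CACCC 1, 1 and 0 times.

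Kcnd2 encodes Kv4.2, a main pore subunit of the fast transient outward current in rat ventricle. On its brighter probe set the 6 failing hearts read 6.94, 7.29, 7.01, 7.60, 7.06 and 7.20 and the 6 control hearts 9.26, 8.72, 9.14, 7.70, 9.18 and 9.04, in the order of their replicate numbers. The failing hearts lay close together and all of them below the lowest control heart, control replicate 4, which stood apart from the other control hearts. The means were 7.18 ± 0.24 in failing and 8.84 ± 0.59 in control hearts (SD, n = 6 each). Kcnd2 fell by 1.66 on the log2 scale (95% interval -2.22 to -1.10), with a limma adjusted p of 0.0165 among the brighter and 0.10 over all probe sets, and an exact permutation p of 0.00216, the smallest that 924 arrangements can give. By its p it ranked 6th of all 31042 probe sets, and its fall was the 9th deepest among the 15521 brighter ones. The call among the brighter probe sets held whichever 1 heart was left out (adjusted p from 1.09e-04, without control replicate 4, to 0.0407, without control replicate 1). Without control replicate 4 the difference was -1.89 and the adjusted p over all probe sets 0.00406. It also passed over all probe sets without failing replicate 5 (adjusted p = 0.0428), with a variance that follows the level (0.00605) and with an offset of 32 before the logarithm (0.0446). Those last settings called 0.564% of all probe sets lower and 1.2% higher, and 0.0354% and 0.113%. In every other setting Kcnd2 did not pass over all probe sets. There the limma adjusted p ran from 0.0571, over probe sets above the 25th percentile, to 0.287, with the replicate number as a block.

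The second Kcnd2 probe set lay just below the median level. Control hearts ran from 7.30 to 8.36 with a median of 8.22, and failing hearts from 1.00 to 8.08 with a median of 6.44. It pointed the same way, with 5 of 6 failing hearts below every control heart, but a single failing heart, replicate 3, at 1.00 widened the error (-2.32 ± 0.94, limma adjusted p = 0.29 over all probe sets, 0.0307 unadjusted). Without that heart the difference was -1.37.

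Kcnd3 encodes Kv4.3, the partner pore subunit of the same current. On its brightest probe set failing hearts ran from 7.16 to 7.97 with a median of 7.65 and control hearts from 7.58 to 8.80 with a median of 8.16. The groups overlapped, 4 control hearts lying above all failing hearts. The difference was -0.59 ± 0.22, with a limma unadjusted p of 0.0206, an adjusted p of 0.0991 among the brighter probe sets and 0.257 over all. It passed among the brighter probe sets without control replicate 4 (adjusted p = 0.0312), with array weights (0.0493) and with the RNA quality covariate (0.0324). A second brighter Kcnd3 probe set gave -0.50 ± 0.22 (limma adjusted p = 0.156). The difference on the first probe set minus that on the second was -0.094 (exact permutation p = 0.606). The last, a dim one, gave 0.34 ± 0.54, and -0.092 without control replicate 5.

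Kcnip2 encodes KChIP2, the calcium-binding partner that carries Kv4 channels to the cell surface, and was read by the brightest probe set of any member, at the 98.7th percentile of the arrays. Failing hearts ran from 12.56 to 13.53 with a median of 13.25 and control hearts from 13.20 to 14.05 with a median of 13.73. Of the control hearts 5 lay above every failing heart, and only control replicate 4, at 13.20, lay among them. The difference was -0.53 ± 0.19, a 1.45-fold lower level, with a limma unadjusted p of 0.0153 and an adjusted p of 0.0847 among the brighter probe sets and 0.235 over all. It passed among the brighter ones without control replicate 4 (-0.63, adjusted p = 0.0253), without failing replicate 5 (0.0496) and with array weights (0.0396). In the other settings it did not pass (adjusted p up to 0.161, without failing replicate 3). A second bright probe set showed little difference, at 11.66 ± 0.35 in failing and 11.80 ± 0.48 in control hearts (-0.15 ± 0.24, limma adjusted p = 0.714). The 2 Kcnip2 probe sets differed from each other by -0.38 in their failing minus control difference, which did not exceed the spread between hearts (exact permutation p = 0.145). The last, at a mean of 4.52, was near the bottom of the scale and gave 0.17 ± 0.66, turning negative without control replicate 2 (-0.46) and with an offset of 32 (-0.069).

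Kcna4 encodes Kv1.4, the pore of the slowly recovering transient outward current. Failing hearts ran from 5.76 to 7.44 with a median of 6.85 and control hearts from 6.40 to 7.33 with a median of 7.03. The groups overlapped, and the difference was -0.23 ± 0.29 (95% interval -0.88 to 0.41) (limma unadjusted p = 0.44). In each heart the log2 value of Kcna4 was set against the mean of the Kcnd2 and Kcnd3 values on their brightest probe sets. This ratio, whose zero has no meaning, was -0.67 ± 0.56 in failing and -1.56 ± 0.47 in control hearts (SD, n = 6 each), 0.89 higher in failing hearts, where 4 of 6 lay above every control heart. The difference in this ratio follows from those of the same genes given above, mostly from the fall of Kcnd2, and is no separate result. Kcna4 itself was not higher. As the ratio was built from the members, no test is given.

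**Figure D2:**
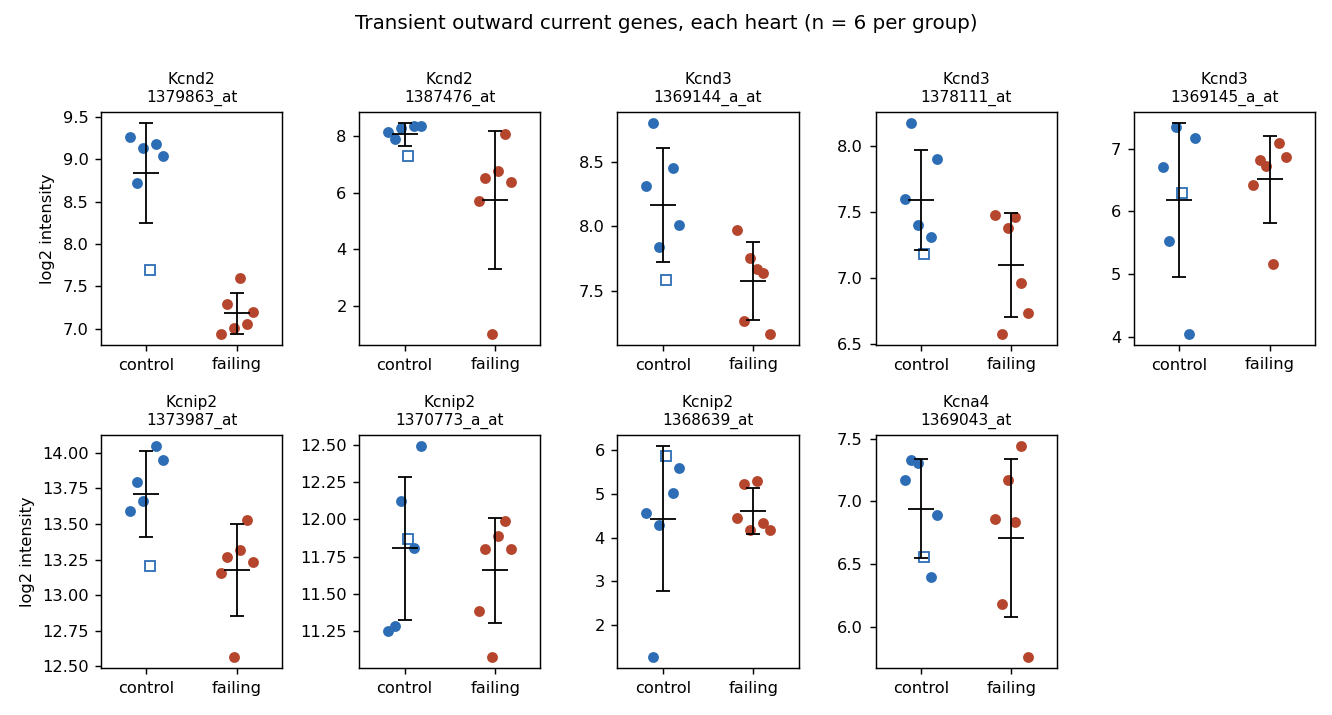
Each panel plots 1 transient outward probe set, with log2 intensity on the vertical axis and 1 point for each control and failing heart. Black lines give the mean and SD of 6 hearts, and the open square is control replicate 4. In the first Kcnd2 panel the 6 failing hearts, from 6.94 to 7.60, lie below all control hearts, while the Kcna4 panel shows 2 overlapping groups.

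The delayed rectifier genes did not differ beyond their spread. Kcnq1 encodes the pore of the slow delayed rectifier. Failing hearts ran from 9.49 to 10.35 with a median of 9.84 and control hearts from 9.39 to 10.06 with a median of 9.75, so that the groups differed by 0.20 ± 0.18 (95% interval -0.20 to 0.60) (limma adjusted p = 0.487 among the brighter probe sets). Kcna5, of the ultrarapid delayed rectifier, ran from 6.47 to 7.26 in failing and from 6.52 to 7.20 in control hearts, which is 0.13 ± 0.17 apart (95% interval -0.24 to 0.49) (limma unadjusted p = 0.469).

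Among the inward rectifiers, Kcnj11 and Kcnj3 had lower values in failing hearts on every probe set, and Kcnj5 did not. Kcnj11 encodes Kir6.2, the pore of the ATP-sensitive channel. On its brightest probe set failing hearts ran from 10.002 to 10.96 with a median of 10.43 and control hearts from 10.59 to 11.23 with a median of 11.10. The difference was -0.53 ± 0.18, a 1.44-fold lower level (limma unadjusted p = 0.0129, adjusted p = 0.0766 among the brighter probe sets and 0.219 over all), and 4 of 6 failing hearts lay below every control heart. The suffix of this probe set marks oligonucleotides that can match more than 1 transcript. It passed among the brighter probe sets without control replicate 4 (-0.61, adjusted p = 0.0295), without failing replicate 5 (-0.62, 0.0297) and with array weights (0.0328). It also passed without both control replicate 3 and failing replicate 5 (0.0451). In the other settings it did not pass (adjusted p up to 0.159, without failing replicate 3). The other Kcnj11 probe sets gave -0.37 ± 0.16 (limma unadjusted p = 0.0367) and -0.26 ± 0.16 (limma unadjusted p = 0.138). No pair of Kcnj11 probe sets differed beyond the spread (exact permutation p from 0.203 to 0.416).

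Kcnj3 encodes GIRK1, a subunit of the acetylcholine-activated channel that slows the sinus node and shortens the atrial action potential. On its brightest probe set failing hearts ran from 8.03 to 8.52 with a median of 8.44 and control hearts from 8.31 to 9.48 with a median of 8.86. Control replicate 4, at 8.31, was the only control heart among the failing ones. The difference was -0.52 ± 0.19, a 1.44-fold lower level (limma unadjusted p = 0.0167, adjusted p = 0.0888 among the brighter and 0.241 over all probe sets). It passed among the brighter ones without control replicate 4 (-0.63, adjusted p = 0.0225) and with array weights (0.0365). In the other settings it did not pass (adjusted p up to 0.181, without failing replicate 3). The other Kcnj3 probe sets gave -0.30 ± 0.12 and -0.73 ± 0.26 (limma adjusted p = 0.118 and 0.087 among the brighter), in each with 4 of 6 failing hearts below every control heart, and the first of them passed without control replicate 4 (0.0433).

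Kcnj5 encodes GIRK4, with which GIRK1 assembles. Its brighter probe set ran from 9.19 to 10.47 in failing and from 9.22 to 10.09 in control hearts (0.19 ± 0.23, limma adjusted p = 0.605 among the brighter probe sets). The dimmer one ran from 6.73 to 8.42 in failing and from 6.85 to 7.95 in control hearts, with 3 of 6 failing hearts above every control heart (0.63 ± 0.32, limma adjusted p = 0.201 among the brighter, 0.0735 unadjusted). Its limma unadjusted p was under 0.05 without failing replicate 2 (0.0115), failing replicate 4 (0.0400) or control replicate 3 (0.0304), and it passed adjustment in none of these fits. The probe sets differed from each other by -0.44, within the spread (exact permutation p = 0.139). Kcnj5 thus showed no lower level beside Kcnj3, with 95% intervals from -0.32 to 0.71 and from -0.071 to 1.34, though the difference between the 2 genes was not tested.

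Kcnj3 and Kcnj5 are known to be expressed more in atria than in ventricles, and atrial markers varied widely between hearts. The atrial myosin light chain Myl7 read 13.38 in control replicate 3 and 11.83 in failing replicate 5, and 5.88 to 9.48 in the other 10 hearts. Myl4 was also highest in these 2 hearts (12.59 and 11.32). Sln read 10.50 and 8.75 in them, but also 10.17 in control replicate 5, 9.62 in failing replicate 6 and 9.13 in control replicate 6. Of 8 measured atrial markers 2 were higher (Nr2f2 and Gja5) and 0 lower at an unadjusted p under 0.05, and Nr2f1 alone lay below the median level. Their summed level ran from 74890 to 98048 in failing and from 60631 to 101698 in control hearts. This sum is mostly Nppa and Pam (means of 15.64 and 14.75), which were high in every heart, so it does not follow Myl7 and is no measure of atrial tissue. Without both control replicate 3 and failing replicate 5 the difference was -0.54 for Kcnj3, 0.29 and 0.79 for the Kcnj5 probe sets and 0.30 for Kcna5. Then 8 member probe sets were lower and 1 higher at an unadjusted p under 0.05. The brightest Kcnd2 and Kcnj11 probe sets were called (limma adjusted p = 0.0126 and 0.0451 among the brighter). The shares of all and of brighter probe sets at these thresholds are not given for that fit. These member counts therefore stand without a comparison. The other Kcnj3 probe sets gave -0.24 and -0.83 without these hearts, where all 12 hearts gave -0.52 on the brightest and -0.30 and -0.73 on the others. The 2 hearts were singled out after their values were seen, and other hearts with a high Sln stayed in. The part of atrial tissue in these differences was not tested.

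Kcnj2 encodes Kir2.1, the main pore of the inward rectifier that sets the resting potential. Its single probe set was dim, at the 28.5th percentile of level. Failing hearts ran from 3.07 to 6.15 with a median of 4.96 and control hearts from 4.34 to 6.74 with a median of 6.04. The difference of -1.13 ± 0.57 has a 95% interval from -2.38 to 0.12 (limma unadjusted p = 0.0732), and a fold from so dim a signal is uncertain.

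**Figure D3:**
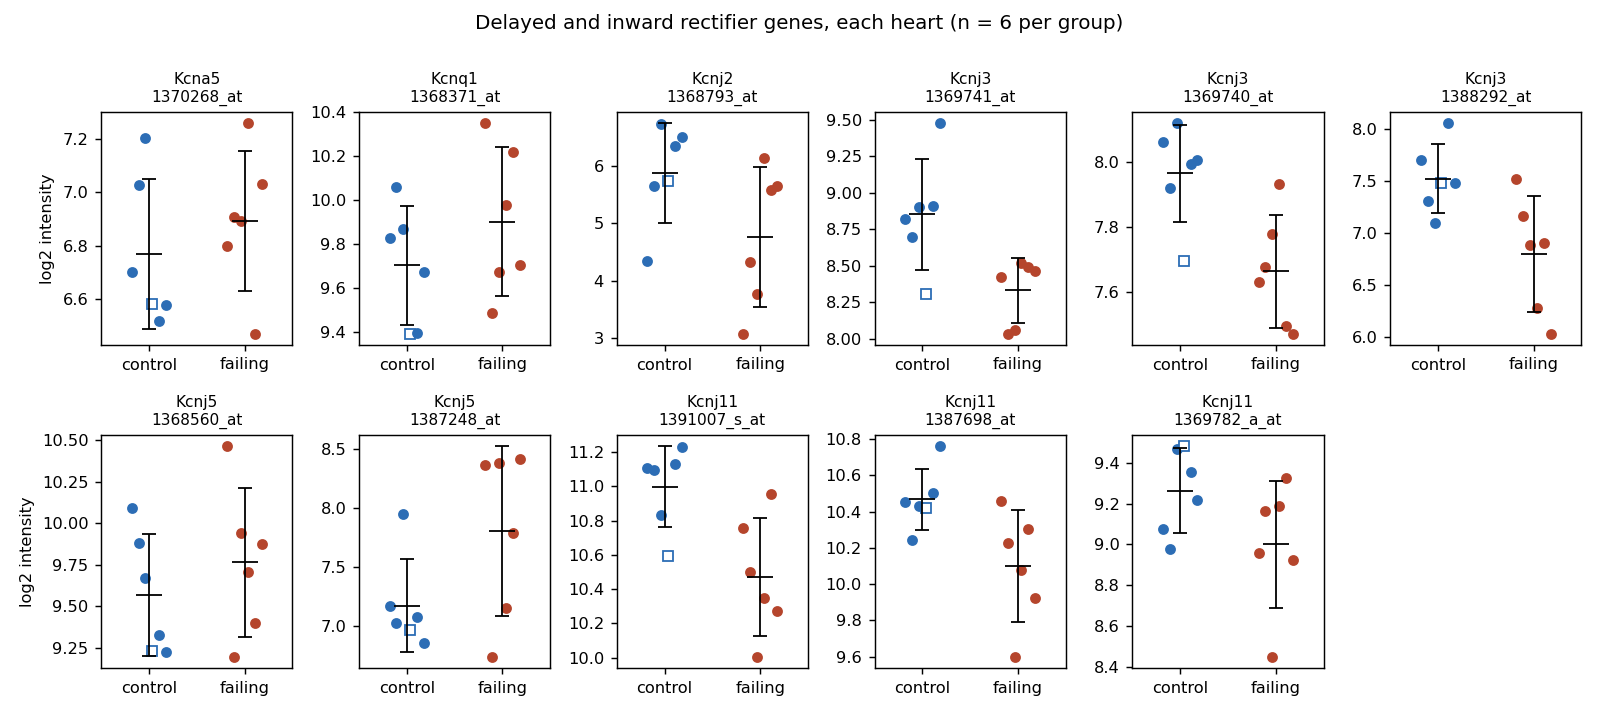
Each panel plots 1 delayed or inward rectifier probe set, with log2 intensity on the vertical axis, 1 point for each heart, and the mean and SD of 6 hearts in black. The open square is control replicate 4. In all 3 Kcnj3 and all 3 Kcnj11 panels the failing mean lies below the control mean, and for both Kcnj5 probe sets it is the higher mean.

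By the exact permutation test on the brightest probe set of each gene, 5 of 10 genes were lower in failing hearts at an unadjusted p under 0.05 and 0 higher, against 10.5% and 9.3% of 14217 genes. By this exact permutation p they were Kcnd2 (p = 0.00216), Kcnip2 and Kcnj3 (each 0.013), Kcnj11 (0.0173) and Kcnd3 (0.0281). The rank-sum form of the test gave 5 too. Kcnd3 lost this without failing replicate 2 or 6 or control replicate 2 (exact p from 0.0541 to 0.0584), and Kcnj2 gained it without failing replicate 4 or control replicate 1 (exact p = 0.0455 and 0.0368).

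**Figure D4:**
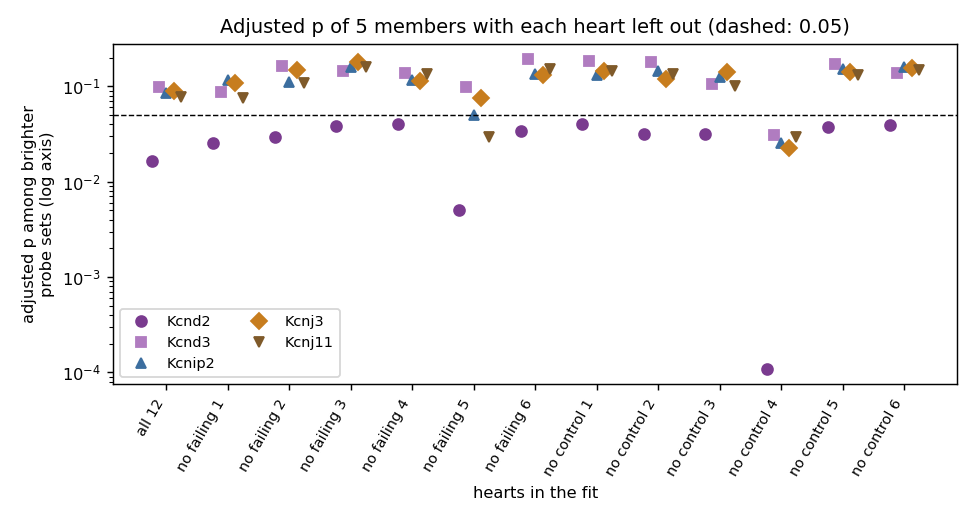
The adjusted p among the brighter probe sets is plotted on a log axis for the brightest probe set of 5 genes, with all 12 hearts at the left and with each heart left out in turn. Kcnd2 stays below the dashed line at 0.05 in every fit, between 1.09e-04 and 0.0407. The other 4 genes all drop below it without control replicate 4, and Kcnip2 and Kcnj11 also without failing replicate 5.

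The genes with which these channels work were read from lists chosen for their roles, by the brightest probe set of each gene, and genes named at a low level or for a small difference were picked after their values were seen. Over genes so read, 8.55% were lower and 8.31% higher at an unadjusted p under 0.05, and among those at or above the median level 1.63% were called lower and 2.83% higher. Of 22 other voltage-gated pore genes 1 was lower and 1 higher at an unadjusted p, both dim, with a median difference of -0.041 and 0 calls among 3 brighter genes. Kcnh2, the rapid delayed rectifier, gave -0.12 ± 0.27, and Kcns3, a silent partner subunit, had the smallest p of the brighter ones (0.29 ± 0.18, limma adjusted p = 0.284). Of 12 accessory subunit genes 2 were lower and 1 higher at an unadjusted p. Of the 2 brighter ones, Kcne4, a single-span subunit that dampens several voltage-gated channels, rose. Failing hearts read 8.40 ± 0.39 and control hearts 7.59 ± 0.13, all 6 failing hearts lying above every control heart (0.82 ± 0.18, limma adjusted p = 0.0276 among the brighter and 0.129 over all probe sets). Kcne1, the partner of Kcnq1, gave 0.027 ± 0.35.

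Of 13 other inward rectifier and sulfonylurea receptor genes 0 were lower and 1, the dim Kcnj13, higher at an unadjusted p. Abcc9, the receptor SUR2 that assembles with Kir6.2, gave -0.17 ± 0.12 on its brightest probe set, while another, picked for its smaller p, read 10.09 ± 0.13 in failing and 10.41 ± 0.09 in control hearts without overlap (-0.31 ± 0.10, limma adjusted p = 0.0691 among the brighter). Of 11 two-pore genes 1, the dim Kcnk2, was lower (-1.56 ± 0.39, limma unadjusted p = 0.00181), and the brighter Kcnk3, the channel TASK-1, gave -0.39 ± 0.18 (adjusted p = 0.168). Of 7 calcium- and sodium-activated channel genes 0 were lower or higher at an unadjusted p, and Kcnmb4 was the only one at or above the median level (0.70 ± 0.38).

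Of 17 scaffold and regulator genes 1 was lower and 1 higher at an unadjusted p, with a median difference of 0.12. Etv1, an ETS factor of fast-conducting atrial and Purkinje cells, rose on 1 of 2 named probe sets: failing hearts read 8.37 ± 0.38 and control hearts 7.51 ± 0.22 without overlap (0.87 ± 0.19, limma adjusted p = 0.0276 among the brighter), and the brighter probe set gave 0.88 ± 0.26 (adjusted p = 0.0552). The muscle transcription factor gene Mef2c gave -0.35 ± 0.15 and -0.27 ± 0.11 (limma adjusted p = 0.146 and 0.128). Klf15, a Krüppel-like factor known to act on Kcnip2, differed by 0.062 ± 0.22, and Irx3 and Irx4 by 0.76 ± 0.54 and 0.17 ± 0.33, while Irx5, known to repress Kcnd2, lay below the median level.

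The genes whose values followed Kcnd2 most closely from heart to heart, after each group's mean was taken out, were Me1 (Pearson correlation 0.919), Sts (0.907) and Prdx6 (0.904), over 12 hearts and among brighter probe sets of 1 gene. Control replicate 4 held 64.2% of the squared deviations of Kcnd2, and without it the correlations with the same genes were 0.651, 0.757 and 0.639 over 11 hearts. Those closest to Kcnj11, the member with the next smallest p, were Ttn (0.938), Nsmce1 (0.933) and Tnni3k (0.924), and without control replicate 4 these correlations were 0.924, 0.914 and 0.906. None of these 6 was called between the groups (limma adjusted p from 0.0691 to 0.716 among the brighter), and the points share the scaling of the arrays.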

How the data were processed

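RNA of 12 rat hearts (6 failing, 6 control) was read on 1 Affymetrix array each. The authors deposited intensities on a linear scale, scaled to a common trimmed mean (500.19 to 500.23 with 2% taken off each end). The submitters' processing notes name RMA, which usually gives log2 values, so how the probes were summarised is not settled by the sources used here. Control probe sets (57) were removed and log2 taken with no further normalization. The test was that of limma (version 3.58.1, R 4.3.3) with Benjamini-Hochberg adjustment, over all 31042 probe sets and over the brighter 15521. The procedure was tested on simulated data. Single genes were also compared by a two-sided exact permutation test. Arrays carry no read depth, so their number limits the precision. All member probe sets are named, and from each list up to 2 brighter probe sets in each direction with the smallest unadjusted p under 0.05, or else the 1 with the smallest p. The fit to the brighter probe sets, the members and the lists were chosen with earlier results of these data known. The probe-set pairs, the non-overlap counts and like-pattern correlations without control replicate 4, and leaving out control replicate 3 with failing replicate 5, were added after seeing the data. The correlation of same-numbered hearts was over 0.1 for 1 of 6 numbers (0.232 for replicate 1), so numbers were not used as pairs. Alternatives (9, and 12 that leave out a heart each) are given in the closing section.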

Additional observations from a re-analysis of the deposited data

Results flagged for a closer look

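In 5 of 40 groups of 6 hearts (20 probe sets in 2 groups) a single heart lay far from the others, by the size of its gap to the nearest heart as a share of the range. Chance gives about 1 in 20, or 2.0 of 40. For the brighter Kcnd2 probe set control replicate 4 read 7.70, a gap of 0.656 of the range. For the dim Kcnd2 probe set failing replicate 3 read 1.00 (0.665). For the dim Kcnd3 probe set failing replicate 4 read 5.17 (0.653), and for the dim Kcnip2 probe set control replicate 2 read 1.26 (0.658). For the dimmer Kcnj5 probe set control replicate 3, the heart with the highest Myl7, read 7.95 (0.713).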

How the results depend on the processing

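Of the values of single member probe sets under other settings, 413 kept their direction and side of the threshold, 13 came to pass it, 0 no longer passed and 3 turned sign, all in dim probe sets: Kcnd3 at -0.092 without control replicate 5 (up to 0.61 with another heart left out), and Kcnip2 at -0.46 without control replicate 2 (up to 0.46) and -0.069 with an offset of 32. Over all probe sets, where 0 were called, 373 were higher and 175 lower with a trend and robust variance, 35 and 11 with an offset of 32, and 1 and 2 without control replicate 3 and failing replicate 5. Leaving out single hearts gave 0 to 120 higher and 0 to 40 lower, most without failing replicate 5. Among the brighter probe sets (429 higher, 230 lower) the counts were 853 and 731 with array weights and 395 and 136 with median centring, and 410 were lower with a trend. Single hearts left out gave 20 to 1035 higher and 4 to 1048 lower, fewest without control replicate 6 and most without control replicate 4. Members lower at an unadjusted p numbered 6 to 10 with 1 heart left out and 5 with 1 probe set per gene. Members higher numbered 0 to 1 with 1 heart left out, and 1 with a trend and without both hearts, each time the dimmer Kcnj5 probe set. Members called lower numbered 5 with array weights, where 731 of 15521 brighter probe sets were called lower. They numbered 1 to 6 with 1 heart left out, the 6 without control replicate 4, where 6.75% of brighter probe sets were called lower. They numbered 2 with the RNA quality covariate and 2 without both hearts. For these settings the share of brighter probe sets called is not given, so the counts stand without a comparison. Non-overlapping members numbered 3 without control replicate 4. With the replicate number as a block 222 brighter probe sets were higher and 59 lower. At an unadjusted p 8 members were lower and 1 higher in that fit. The share of all probe sets at an unadjusted p is not given for this or the other settings, so these member counts stand without a comparison. With the block Kcnd2 had a limma adjusted p of 0.0351 among the brighter and 0.287 over all probe sets. Correlations of same-numbered hearts ran from -0.0602 to 0.232, and 2 of 6 numbers (1 and 4) correlated best with their own. The cause of these shifts was not tested.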
